A study of Mus musculus with 18 samples.

Results

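The 82 genes described here carry symbols of cytosolic ribosomal proteins and were chosen by symbol alone. They are the rows of the deposited mouse testis table whose symbols begin with Rpl or Rps and follow the standard numbering. Rplp0, Rplp1, Rplp2 and Rpsa were also taken. The members were 82 of 20985 rows, 31 for the small and 51 for the large subunit by symbol. Rpl32l, counted with the large subunit, is annotated as a processed pseudogene. The rule does not match some other genes in the table that code for ribosomal components, among them Fau, Rack1, Rps3a1 and Rpl22l1. Testes of ICR mice aged 10 weeks were sequenced in 6 groups of 3 libraries. The groups were control mice, mice given 10 mg/kg of AOS (AOS), mice on a high fat diet (HFD), and mice on that diet that also received 10 mg/kg of AOS (HFD-AOS). A further pair of groups on the diet carries the labels AOS 10 mg/kg FMT (HFD-AOSFMT) and control FMT (HFD-conFMT). No source used here writes out what AOS or FMT abbreviates, and the study asked what FMT does to a testis damaged by the diet. Since nothing in the labels ties the libraries of a group to separate animals, the p-values reflect only how far these samples scatter, which may be technical. Whole testis was sampled, and in such bulk RNA fewer cells of a type and less RNA per cell cannot be told apart.

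Each cytosolic ribosome carries a small subunit, which reads the mRNA, and a large subunit, which joins amino acids and holds the exit tunnel for the growing chain. Most of these proteins are present in a fixed number per ribosome, and many of their mRNAs start with a run of pyrimidines, the TOP motif, through which growth signals adjust their translation. The testis is known for paralogues of X-linked ribosomal protein genes, among them Rpl10l and Rpl39l, which are active in germ cells while the X chromosome is silenced in meiosis.

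The first sequences shown are the coding sequences of the X-linked Rpl39 and of its chromosome 16 paralogue Rpl39l, because the paralogue was above the X-linked gene in every library. Rpl39 lies on the X chromosome (GRCm38, chrX:37082520-37085402, minus strand) and Rpl39l on chromosome 16 (chr16:10170226-10174911, plus strand). Both are 156 bases long, and capitals mark the 23 bases at which they differ, for an identity of 85.3%.
Rpl39: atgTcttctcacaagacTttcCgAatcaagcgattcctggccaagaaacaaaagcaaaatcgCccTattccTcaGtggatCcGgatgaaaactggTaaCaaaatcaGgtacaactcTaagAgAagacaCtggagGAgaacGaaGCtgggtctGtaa
Rpl39l: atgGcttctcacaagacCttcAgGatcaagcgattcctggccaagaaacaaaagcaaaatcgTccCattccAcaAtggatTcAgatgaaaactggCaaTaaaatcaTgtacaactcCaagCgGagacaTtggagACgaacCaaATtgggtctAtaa
Rpl41, which codes for the smallest protein of the ribosome, was the member of highest mean level and one of those that rose. Its coding sequence (gene at chr10:128548114-128549305, minus strand) is 78 bases long, and no base is marked in it.
Rpl41: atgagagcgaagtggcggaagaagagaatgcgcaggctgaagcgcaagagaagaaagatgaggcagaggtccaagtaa

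Of the 16 members that rose in HFD-conFMT over control, 12 had a RefSeq start. A pyrimidine run stood at a start of 5 of them, within 5 bases of it in Rpl31, and at no start of the other 6, which were Rpl13, Rpl27, Rpl41, Rpl9, Rps12 and Rps13. The starts of 4 that hold it were picked to show what such a run looks like. Each window holds 30 bases on the gene's strand, from 10 before the RefSeq start (GRCm38.p6), and capitals mark the run; for Rpl35a the second of the 3 listed starts is shown, and the other two do not hold the run.
Rps10 (chr17:27635225-27635254): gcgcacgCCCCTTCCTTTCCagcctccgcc
Rps18 (chr17:33955646-33955675): cacttccgCTCTCTCTTCCacaggaggcct
Rpl28 (chr7:4792955-4792984): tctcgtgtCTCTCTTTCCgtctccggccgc
Rpl35a (chr16:33056472-33056501): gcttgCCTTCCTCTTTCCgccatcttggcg
RefSeq gave promoters for 62 of the 82 members, with 74 starts. A pyrimidine C at the start, followed by at least 4 pyrimidines on the same strand, was found at 18.9% of these starts and at 2.51% of all 32851 starts in the table. Allowing the run to begin within 5 bases of the start gave 41.9% against 18.3%. In the 300 bases from 250 before to 50 after the start, read on both strands, the letters CCGGAAGT were found in 16.2% of member promoters and 3.89% of all, AAGATGGC in 9.46% and 2.75%, and TATAAA in 9.46% and 13.6%. A match is a description of the letters and not of a bound factor.

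The ribosomal protein transcripts ran from 0.0822 to 1177 FPKM in mean level, a scale divided by transcript length on which genes can be compared. The median of the 82 mean levels was 220 FPKM, 64 members reached 100 FPKM, 12 lay under 50 FPKM and 39 were among the 500 highest genes in the table. The 5 highest were Rpl41 (1177 FPKM ± 136, SD over 18 libraries), Rps27 (989 ± 124), Rpl26 (881 ± 81.2), Rps26 (774 ± 124) and Rps24 (679 ± 42.8). The 5 lowest were Rpl32l, which the annotation calls a processed pseudogene and which was listed at 0 in 11 libraries, Rpl3l (0.513 FPKM ± 0.171), Rps6 (2.54 ± 0.641), Rpl34 (5.81 ± 0.935) and Rpl29 (11.5 ± 1.48). Rps6 codes for the small subunit protein phosphorylated by the S6 kinases, and its highest level in any library was 3.77 FPKM.

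**Figure D1:**
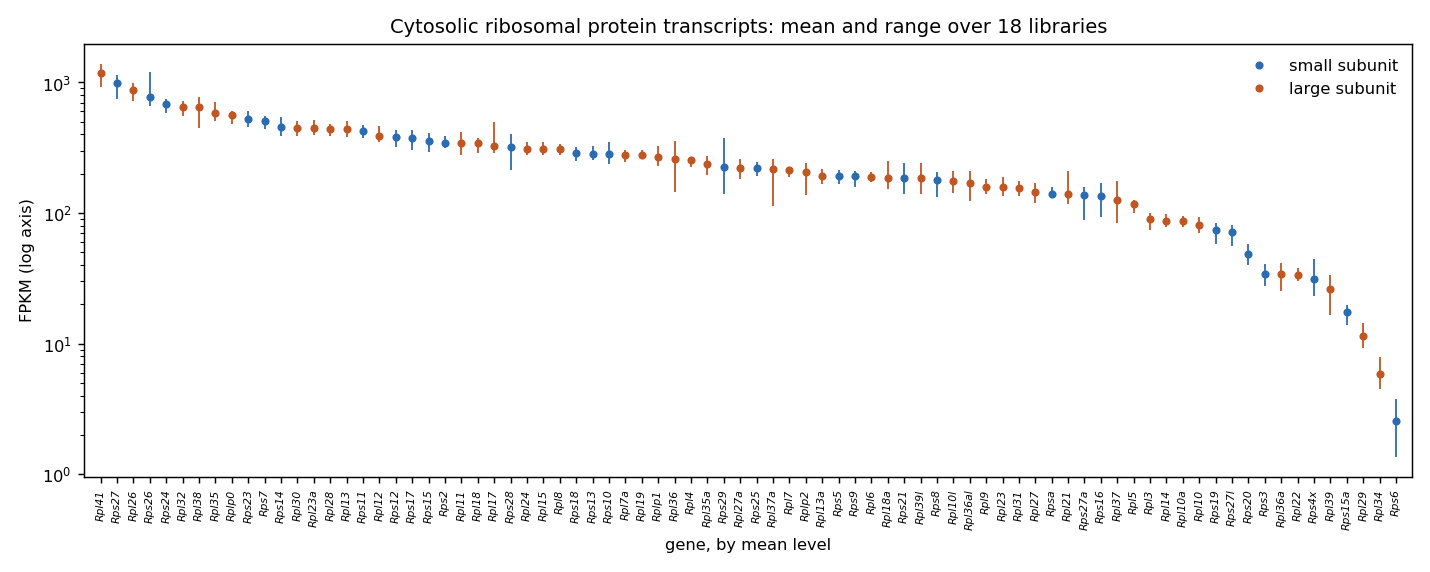
Mean level (points) and lowest to highest library (lines) of the 80 members with a mean of at least 1 FPKM, on a log axis of FPKM, ordered by mean. Of the 82 members 64 reach 100 FPKM, up to Rpl41 at 1177 FPKM, and Rps15a, Rpl29, Rpl34 and Rps6 lie at the low end.

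How unlike each other these levels are has to be read beside how the reads could be assigned, since ribosomal protein genes have many processed pseudogenes. Each member was represented by a chosen coding transcript. Of its 50-base stretches, a median of 53.6% also occurred in an annotated transcript of another gene. Over 50% was shared in 47 of 81 members. The shares of the low members were 84.6% for Rps6, 78.5% for Rpl29 and 50.6% for Rpl34, and those of Rps27 and Rpl10, at 98.6% and 92.1%, were higher still. Over 80 members the level had a Spearman rho of 0.07 with this share and of -0.24 with transcript length. Members over 50% had a median level of 260 FPKM, and the other 34 had 191. The levels of members with large shares are therefore uncertain, because no source used here states how reads that fit several genes were counted.

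The libraries summed to between 588081 and 637005 FPKM, with 12996 to 13221 genes at 1 FPKM or more. Germ cell markers of testis were present, with all 13 spermatocyte and all 11 elongating spermatid markers above a mean of 1 FPKM. An epididymal list of 10 genes summed to 170.0 FPKM in control 3 and 112 FPKM in HFD-conFMT 2, against 1.9 to 13.1 FPKM in the other 16 libraries, and its members Lcn8 and Spink13 were listed at 0 in every library. HFD-AOS 1 held the highest value of 13 of the 80 tested members and the lowest value of 20. HFD-conFMT 3 and HFD-conFMT 2 held the highest value of 14 and 13 members, and control 2 and HFD 2 the lowest value of 15 each.

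The summed level of the ribosomal protein genes was lowest in control and highest in HFD-conFMT. It was 20523 FPKM ± 507 (SD, n = 3) in control, 21491 ± 850 in HFD, 22122 ± 183 in AOS, 23002 ± 629 in HFD-AOS, 23562 ± 994 in HFD-AOSFMT and 24175 ± 543 in HFD-conFMT. The order of group means was thus control, HFD, AOS, HFD-AOS, HFD-AOSFMT and HFD-conFMT, and neighbours in it differed by less than the larger of their SDs, except HFD over control and HFD-AOS over AOS. Libraries of control and HFD overlapped, while every library of AOS, HFD-AOS, HFD-AOSFMT and HFD-conFMT lay above every control library. As a share of the summed FPKM of the library, the members took 3.46% ± 0.0569 in control, 3.62% ± 0.0352 in AOS, 3.55% ± 0.0611 in HFD, 3.68% ± 0.153 in HFD-AOS, 3.8% ± 0.144 in HFD-AOSFMT and 3.85% ± 0.0523 in HFD-conFMT. The ratio of HFD-conFMT to control was 1.18 for the sums and 1.11 after every library was rescaled to the same total. The small subunit sum was 8127 FPKM ± 222 in control and 9617 ± 134 in HFD-conFMT, and the large subunit sum 12396 ± 287 and 14558 ± 431.

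**Figure D2:**
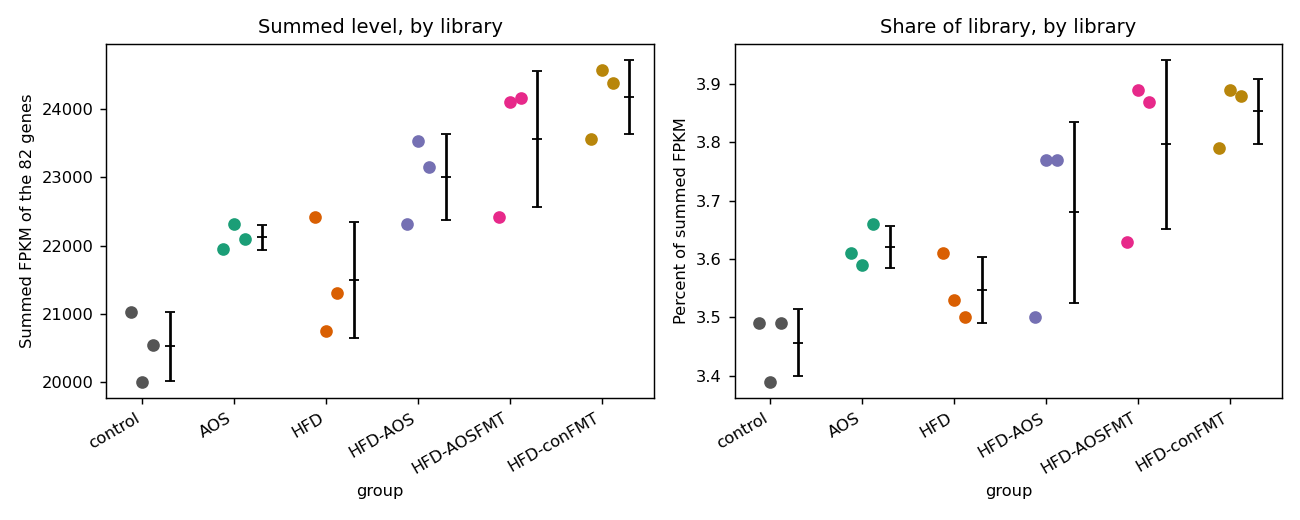
Summed FPKM of the 82 members (left) and their percent of the summed FPKM (right), 1 point per library, with the group mean and SD beside them in black; the axes do not start at 0. The 3 HFD-conFMT libraries, at 23558 to 24578 FPKM, lie above the 3 control libraries, at 20008 to 21021 FPKM.

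Of the 82 members, 80 had a mean of at least 1 FPKM and were among the 13105 genes of the limma fit on log2(FPKM + 1). Rpl3l and Rpl32l were not. Fold changes below are on that scale, so changes of genes at a few FPKM come out too small. Counts called under other settings, or without single libraries, are given below without the share of all genes called. Whether calls among other genes changed alike cannot be read from them.

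HFD-conFMT against control gave the most members with an adjusted p under 0.05. Of 80 members 16 rose and 0 fell, where 2.09% of all genes tested were called. The large subunit genes among them were Rpl13, Rpl32, Rplp1, Rpl35a, Rpl41, Rpl27, Rpl28, Rpl8, Rpl9, Rpl30 and Rpl31, and the small subunit genes were Rps13, Rps10, Rps21, Rps18 and Rps12. Their log2 fold changes ran from 0.20 for Rpl8 to 0.43 for Rps21. The 80 members had a median log2 fold change of 0.21 and 77 were higher in HFD-conFMT (46.7% of all genes were), whereas the median over all genes was -0.01. Rescaling to the same total left a member median of 0.13 and 7 calls, and quantile normalization 0.13 and 3 calls, each with 72 members higher. In 59 members every HFD-conFMT library was above every control library, or 73.8%, against 12.7% of all genes tested.

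Rpl13, which codes for a large subunit protein, was the member of smallest p. It was at 398, 386 and 394 FPKM in the control libraries, at 455, 444 and 445 FPKM in AOS, and at 423, 382 and 403 FPKM in HFD. In the HFD-AOS libraries it was at 417, 435 and 469 FPKM, in HFD-AOSFMT at 448, 457 and 476 FPKM, and in HFD-conFMT at 469, 488 and 503 FPKM. Control and HFD libraries overlapped at the low end, and the HFD-conFMT libraries were above all libraries of control, AOS and HFD. The difference between HFD-conFMT and control was 0.31 with an SE of 0.05 (limma, adjusted p = 0.00903). Rpl13 was also the only member with an adjusted p under 0.05 in the F test over all 6 groups (limma, adjusted p = 0.0401), where 0.328% of all genes were called. That F-test count of 1 was 0 when any 1 of 14 libraries was left out, 2 without AOS 2, 7 without HFD-AOS 1 and 9 without HFD-AOS 3.

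Rps13, of the small subunit, was at 256, 270 and 254 FPKM in control and at 315, 327 and 322 FPKM in HFD-conFMT. The groups did not overlap, and the difference was 0.30 ± 0.05 (SE; limma adjusted p = 0.0132). Rplp1, one of the acidic stalk proteins that recruit elongation factors, was at 237, 246 and 232 FPKM in control and at 285, 296 and 327 FPKM in HFD-conFMT, without overlap, and rose by 0.34 ± 0.06 (SE; limma adjusted p = 0.0220). Its stalk partners were higher without passing the test. Rplp2 was at 185 to 191 FPKM in control and 224 to 240 FPKM in HFD-conFMT (limma adjusted p = 0.115), and Rplp0, the base of the stalk, at 528 to 545 and 581 to 602 FPKM (adjusted p = 0.177). Rpsa, whose protein is also the laminin receptor precursor, was at 131 to 139 FPKM in control and 146 to 157 FPKM in HFD-conFMT (adjusted p = 0.151). Rpl22, a large subunit protein with roles outside the ribosome, was at 30.4 to 34.7 FPKM and 33.0 to 38.2 FPKM and the groups overlapped (adjusted p = 0.445).

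**Figure D3:**
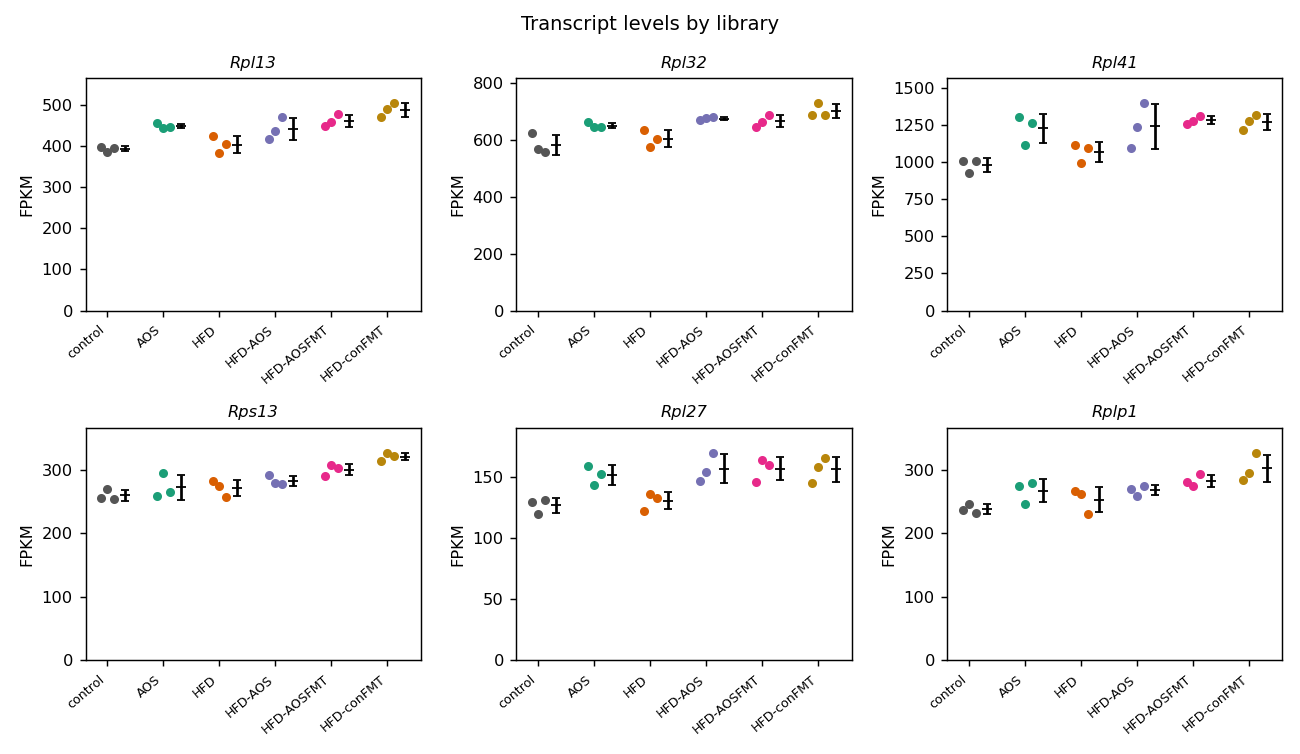
FPKM of Rpl13, Rpl32, Rpl41, Rps13, Rpl27 and Rplp1 in each of the 18 libraries by group, with the group mean and SD in black and axes from 0. For each of these genes the HFD-conFMT libraries lie above all control libraries, and the HFD libraries lie near control.

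The 3 members that were lower in HFD-conFMT than in control were Rps6, Rpl4 and Rpl34, at log2 fold changes of -0.22, -0.05 and -0.05, and none passed the test. Longer transcripts had smaller fold changes: over the 80 members the Spearman rho of the log2 fold change with length was -0.53, and over the 12851 tested genes with a length it was -0.38. A gene's length was the median over its annotated transcripts, which put Rps20 at 3706 bases with a coding length of 360. The transcripts expressed in these libraries can differ from it. The 65 members under 1000 bases had a median log2 fold change of 0.23 and the other 15 of 0.13. The 2612 other genes under 1000 bases had a median of 0.07. Adjusting each library for transcript length and GC share left a member median of 0.13 and 2 members called. In the other comparisons with control, which share its libraries, the rho over the 12851 genes was also below 0. It was -0.19 for HFD, -0.26 for AOS, -0.28 for HFD-AOS and -0.36 for HFD-AOSFMT. For HFD-AOSFMT against HFD-conFMT it was 0.05. Whether length itself plays a part in these results was not tested. Elongating spermatid markers summed to 53166 to 59514 FPKM in control and 64261 to 69021 FPKM in HFD-conFMT, with no overlap. Round spermatid markers summed to 1766 to 1808 and 1870 to 1876 FPKM, and the macrophage and leukocyte list to 60.1 to 63.5 and 66 to 76.3 FPKM, also without overlap; the part of these lists in the result was not tested. The count of 16 changed when single libraries were left out. It was 0 without HFD-conFMT 2 or HFD-conFMT 3, 1 without control 3, 2 without control 2, 5 without control 1 and 7 without HFD-conFMT 1. It was 0 when both libraries with epididymal transcripts were left out, where the median was 0.22, and 31 without HFD-AOS 1, which only enters through the shared spread. Leaving out AOS 1, AOS 3, HFD 3, HFD-AOSFMT 2 and HFD-AOSFMT 3 in turn gave 8, 6, 8, 7 and 8.

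HFD-AOSFMT against control, which shares its control libraries with the comparison above, gave a smaller count. Rpl41 and Rpl13 rose, 2 of 80 members, where 0.382% of all genes were called. Rpl41 was at 1005, 927 and 1003 FPKM in control and at 1258, 1277 and 1308 FPKM in HFD-AOSFMT. All 3 HFD-AOSFMT libraries exceeded the control libraries, with a log2 fold change of 0.39 and an SE of 0.08 (limma, adjusted p = 0.0496). The Rpl13 difference was 0.23 ± 0.05 (SE; limma adjusted p = 0.0496). Over the 80 members the median was 0.18 and 73 were higher (44.2% of all genes were), against a median of -0.02 over all genes. The lowest members were Rps6, Rps4x and Rpl10. Rescaling to the same total left a member median of 0.11 and 1 call, and the adjustment for length and GC share a median of 0.12 and 0 calls. Elongating spermatid markers summed to 61524 to 64131 FPKM in HFD-AOSFMT and spermatocyte markers to 4136 to 4252 FPKM, against 3966 to 4094 FPKM for the latter in control. Neither list overlapped with control, and their part in the result was not tested. The count was 0 without any 1 library of control, HFD-AOSFMT or HFD-conFMT, and without AOS 1, AOS 3, HFD 3 or HFD-AOS 2. It was 1 without AOS 2 or HFD 1 and 12 without HFD-AOS 1.

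Between the FMT arms no member passed the test. HFD-AOSFMT against HFD-conFMT gave 0 members called of 80 (0.00763% of all genes) and 0 at an unadjusted p under 0.05 in limma (3.12% of all genes). The median was -0.05, with 65 members lower and 15 higher in HFD-AOSFMT (47.1% of all genes were higher). Without HFD-AOSFMT 1 the median was -0.011. Elongating spermatid markers and the macrophage and leukocyte list, at 57.4 to 65.7 FPKM, were lower in every HFD-AOSFMT library than in any HFD-conFMT library, and their part in the median was not tested. The smallest p belonged to Rps13, lower by -0.10 ± 0.05 (SE; limma adjusted p = 1.00), for which the libraries were at 291, 308 and 303 FPKM in HFD-AOSFMT.

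Against HFD, no member passed in either FMT arm. HFD-conFMT against HFD had 0 called (0% of all genes) and 40 at an unadjusted p under 0.05 in limma (12.3% of all genes). All 40 were higher, where 7% of all genes were higher and 5.26% lower at that threshold, and the member median was 0.18. Without HFD-AOS 1 the count called was 2. Its smallest p was that of Rpl13, at 0.27 ± 0.05 (SE; limma adjusted p = 0.0651), followed by Rps13 and Rpl32. The macrophage and leukocyte list summed to 66 to 76.3 FPKM in HFD-conFMT and 53.4 to 57.6 FPKM in HFD, without overlap. The part of this list in the result was not tested. In HFD-AOSFMT against HFD 0 were called (0.0229% of all genes) and 26 had an unadjusted p under 0.05 (9.82% of all genes). All 26 were higher, where 5.23% of all genes were higher and 4.59% lower, and the member median was 0.12. The members of smallest p there were Rpl13, Rpl27 and Rpl11, whose protein binds the 5S RNA and Mdm2 (limma adjusted p = 0.323 for each).

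**Figure D4:**
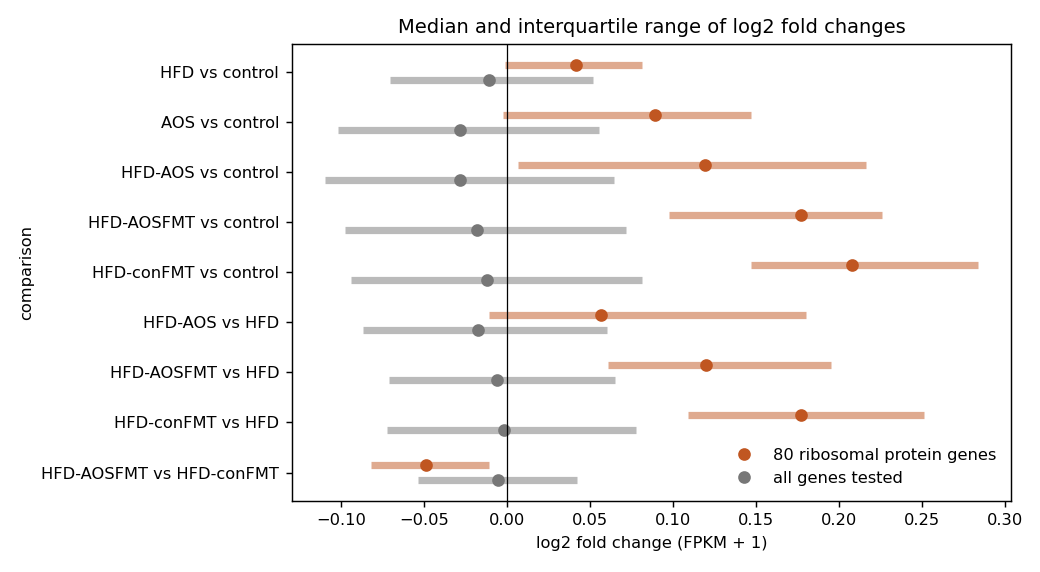
Median (points) and interquartile range (bars) of log2 fold changes of the 80 tested members (orange) and of all genes tested (grey) in 9 comparisons between groups, several of which share control or HFD libraries. Member medians run from -0.05 in HFD-AOSFMT vs HFD-conFMT to 0.21 in HFD-conFMT vs control, and those of all genes from -0.03 to 0.00.

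With the diet alone no ribosomal protein gene passed the test. HFD against control gave 0 of 80 members called (0% of all genes) and 4 at an unadjusted p under 0.05 in limma (6.75% of all genes). All 4 were higher, where 2.91% of all genes were higher and 3.84% lower. The median was 0.04, with 59 members higher (45.2% of all genes were) and 21 lower. Its size depended on the scaling and on single libraries. Quantile normalization gave 0.0066 with 44 members higher, and rescaling to the same total 0.012 with 49 higher. It was 0.014 without HFD 1, 0.025 without control 2 and 0.064 without HFD 2. Rpl35, which sits at the tunnel exit, had the smallest p, at 0.21 ± 0.07 (SE; limma adjusted p = 0.670), followed by Rpl30 and Rps24. Round spermatid markers summed to 1836 to 1952 FPKM in HFD and 1766 to 1808 FPKM in control. The macrophage and leukocyte list summed to 53.4 to 57.6 FPKM in HFD and 60.1 to 63.5 FPKM in control. Neither list overlapped, and their part in the median was not tested. Averaged over the arms with and without AOS, the diet also gave 0 calls (0% of all genes) and 9 members at an unadjusted p under 0.05 (9.48% of all genes), and the smallest p was that of Rpl23a, a docking site for factors at the tunnel exit, at 0.14 ± 0.03 (SE; limma adjusted p = 0.372), followed by Rpl30 and Rpl21.

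AOS was compared with no AOS off and on the diet. AOS against control gave 0 members called (0.0229% of all genes) and 20 at an unadjusted p under 0.05 in limma (15.8% of all genes). Of these 20, 18 were higher and 2 lower, where 5.58% of all genes were higher and 10.2% lower. The median was 0.09, or 0.056 without AOS 2, 0.047 after rescaling to the same total and 0.053 with quantile normalization, and the smallest p values were those of Rpl41, Rpl13 and Rpl27. HFD-AOS against HFD gave 0 (0% of all genes), with 19 at an unadjusted p under 0.05 (12.7% of all genes). All 19 were higher, where 4.89% of all genes were higher and 7.81% lower. By any amount 56 of 80 were higher (43.9% of all genes were), with a median of 0.06, and Rpl27, Rpl11 and Rpl23a were in front. That median was 0.099 when HFD-AOS 1 was left out, 0.034 when HFD-AOS 2 was, and rescaling to the same total left 0.011 with 44 of 80 members higher. Averaged over both diets, 8 members rose with AOS and 0 fell, where 2.2% of all genes were called: Rpl27, Rpl32, Rpl41, Rpl13, Rpl39l, Rpl37, Rpl35a and Rps18. The count of 8 was 2 with quantile normalization, 3 without a filter on low values, and 0 both after the length and GC adjustment and with only the groups compared in the fit. The interaction of AOS with diet had 0 calls (0% of all genes) and 2 members, Rpl34 and Rpl10, at an unadjusted p under 0.05 in limma (6.86% of all genes), so that no difference of the AOS effects between diets was shown.

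Rpl27, a large subunit protein, had the smallest p of the AOS average. It was at 129, 120 and 131 FPKM in control and at 122, 135 and 133 FPKM in HFD. With AOS it was at 159, 143 and 152 FPKM off the diet and at 146, 154 and 169 FPKM on it. All 6 AOS libraries exceeded all 6 libraries without AOS, and the difference was 0.26 ± 0.05 (SE; limma adjusted p = 0.0232). Rpl37, another small large-subunit protein, was at 103, 83.7 and 108 FPKM in control, 146, 107 and 145 FPKM in AOS, 105, 102 and 104 FPKM in HFD, and 126, 121 and 177 FPKM in HFD-AOS. Its difference was 0.43 ± 0.10 (SE; limma adjusted p = 0.0416), and AOS 2 fell within the range of the control libraries. The count of 8 was 14 without HFD-AOS 1, 0 without AOS 1, AOS 3 or control 2, 1 without control 3 or HFD 2, 4 without HFD-AOSFMT 2 or HFD-conFMT 3, and 5 without any 1 of control 1, HFD 3, HFD-AOS 3, HFD-AOSFMT 1, HFD-conFMT 1 or HFD-conFMT 2. Elongating spermatid markers summed to 64686 to 66351 FPKM in AOS and 63960 to 74172 FPKM in HFD-AOS, against 49830 to 64440 FPKM in HFD and the control range above, and their part in the AOS result was not tested. Off the diet, AOS libraries were also above control in round spermatid markers (1812 to 1875 FPKM) and below it in Leydig cell markers (2622 to 3568 against 3573 to 4090 FPKM) and blood genes (66.5 to 98.8 against 99.8 to 141 FPKM).

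HFD-AOS against control, which combines diet and AOS, had 6 members that rose and 0 that fell, where 2.48% of all genes were called. Rpl23a had the smallest p, at 422, 399 and 415 FPKM in control and 517, 473 and 475 FPKM in HFD-AOS. The groups did not overlap, and the difference was 0.25 ± 0.05 (SE; limma adjusted p = 0.0212). The others were Rpl32, Rpl27, Rps10, Rpl41 and Rps18, at 0.21 to 0.33. The member median was 0.12 and 61 were higher (41.2% of all genes were). Rescaling to the same total left a median of 0.044 with 47 higher and 3 calls, and quantile normalization 0.041 with 54 higher and 0 calls. The length and GC adjustment left 0 calls, as did fitting only the groups compared. Round spermatid markers summed to 1815 to 2076 FPKM and blood genes to 60.3 to 87.5 FPKM in HFD-AOS, and neither these nor the elongating spermatid markers overlapped with control; their part in the result was not tested. The count of 6 was 1 without a filter on low values, 0 without control 2 or control 3 and 3 without control 1.

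The members whose libraries scattered most were Rps29, Rpl36 and Rpl39, and those that scattered least were Rpl6, Rpl4 and Rpl7, large subunit proteins with SDs of 0.07 on the log2 scale. Rps29, a zinc-binding small subunit protein, was at 353 and 320 FPKM in AOS 1 and AOS 3, and at 379 FPKM in HFD-AOS 3, while the other 15 libraries, among them AOS 2 at 183 FPKM, lay between 141 and 279 FPKM. Rpl39l was highest in the same 3 libraries, at 213, 208 and 243 FPKM. Rpl36 ran from 144 FPKM in HFD 2 to 354 FPKM in HFD-conFMT 3, with an SD of 0.35, and Rpl39 from 16.7 to 33.5 FPKM. Rps26 was at 1209 FPKM in HFD-AOS 1 and between 662 and 854 FPKM in the other libraries.

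Across the 18 libraries a member's log2 level had a median Pearson r of 0.63 with the mean of the other members, given as a description of libraries that share groups and sequencing. The highest was Rpl13 at 0.91, and Rps6 and Rpl4 were below 0. After subtracting group means the median was 0.42, and 7 members were below 0.

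By the deposited levels, paralogues of the X-linked genes were above their parents in testis. Rpl10l, the autosomal copy of Rpl10, whose protein completes the large subunit, was at 175 FPKM ± 19.9 (SD, 18 libraries) and Rpl10 at 81.3 ± 7.83. Rpl39l was at 184 FPKM ± 24.3 and Rpl39, whose protein lines the exit tunnel, at 26.3 ± 5.40. Rpl36al was at 169 FPKM ± 18.3 and Rpl36a at 34.3 ± 4.74. In each of the 18 libraries the autosomal copy was the higher one, by 1.77 to 2.84 times for Rpl10l, 4.66 to 10.5 times for Rpl39l and 3.17 to 6.28 times for Rpl36al. In the pairs without an X-linked gene the paralogue was the lower one. Rps27l was at 0.0516 to 0.1 times the level of Rps27, and Rpl3l, the muscle form of Rpl3, at 0.00248 to 0.0113 times. Of the 50-base stretches of the chosen transcripts, 16.2% in Rpl39 and 0% in Rpl39l also occurred in other genes' transcripts. The shares were 92.1% in Rpl10 and 7.60% in Rpl10l, and 85.5% in Rpl36a and 63.3% in Rpl36al. For the other pairs the shares were 98.6% in Rps27 and 22.4% in Rps27l, and 85.6% in Rpl3 and 0% in Rpl3l. How reads from such stretches were counted is not known, so the ratios to Rpl10, Rpl36a, Rps27 and Rpl3 are uncertain. Coding identity was 84.8% between Rpl10l and Rpl10, 87.9% between Rpl36al and Rpl36a, 76.1% between Rps27l and Rps27 and 73.3% between Rpl3l and Rpl3.

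**Figure D5:**
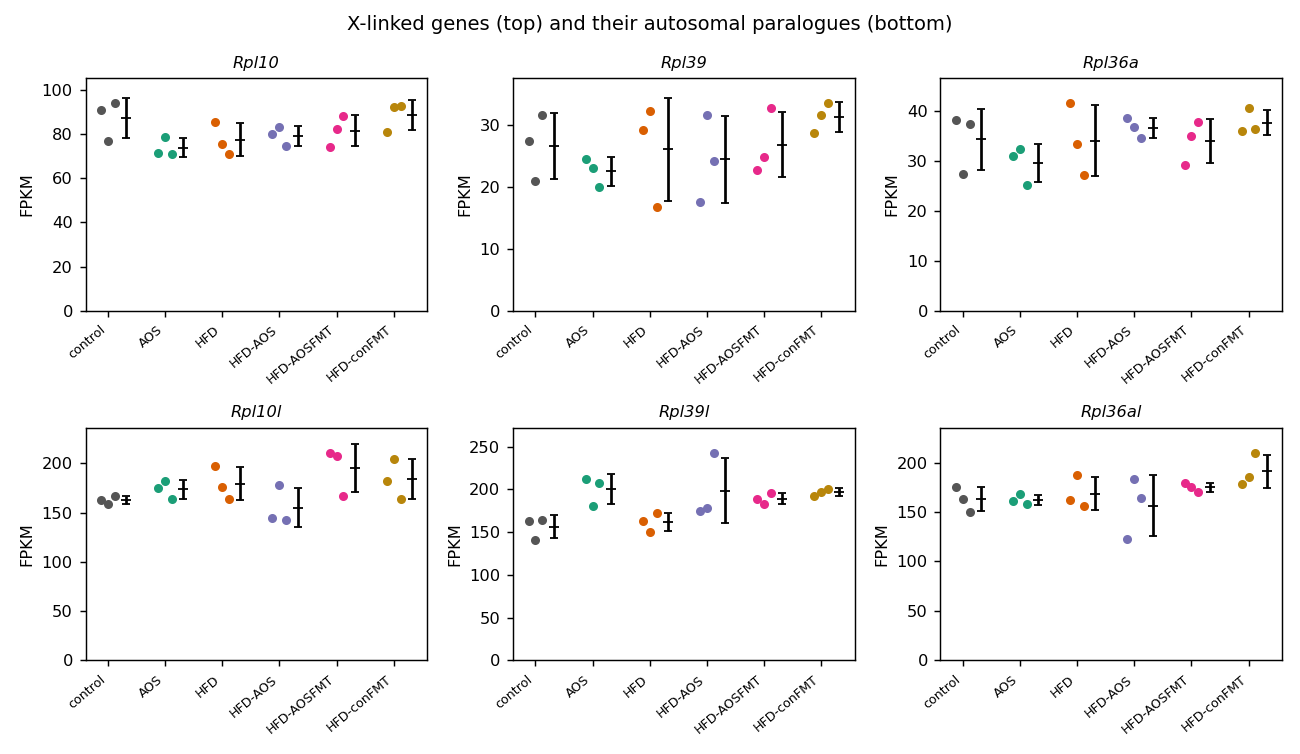
FPKM of the X-linked Rpl10, Rpl39 and Rpl36a (top) and of Rpl10l, Rpl39l and Rpl36al (bottom) in the 18 libraries by group, with the group mean and SD in black and axes from 0 on different scales. Each paralogue exceeds its X-linked partner in every library.

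The ratio of Rpl39l to Rpl39 was 5.98, 6.71 and 5.23 in control, 8.69, 7.84 and 10.5 in AOS and 5.60, 4.66 and 10.3 in HFD. In HFD-AOS it was 9.91, 5.66 and 10.1, in HFD-AOSFMT 8.31, 7.35 and 5.99, and in HFD-conFMT 6.68, 6.23 and 6.01. AOS libraries were above all control libraries, and the other groups overlapped with control. The ratio of Rpl10l to Rpl10 was 1.79, 2.07 and 1.78 in control, 2.45, 2.32 and 2.30 in AOS and 2.31, 2.34 and 2.31 in HFD, so that AOS and HFD libraries were above control. Both HFD-AOS, at 1.81, 2.14 and 1.91, and HFD-conFMT, at 2.26, 2.21 and 1.77, lay below HFD. Over 5 pairs of genes and 9 comparisons, 45 exact two-sided permutation tests gave a smallest p of 0.1, which is the smallest that 3 against 3 allows, in 5 tests, and an adjusted p of 0.9.

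Other genes of translation were taken from lists of general knowledge. Among the 53 tested genes reported here that have TOP mRNAs or code for translation factors, 0 rose and 1 fell in HFD-conFMT against control, where 2.09% of all genes were called. At an unadjusted p under 0.05 in limma 10 were higher and 7 lower (8.68% and 10.2% of all genes). Of these 53, 31 were higher (46.7% of all genes were) and the median was 0.02. Eif3a, the largest subunit of initiation factor eIF3, fell by 0.28 in HFD-conFMT (limma adjusted p = 0.0265), and Vim, the intermediate filament gene with a TOP mRNA, fell by 0.25 in HFD-AOS against control (adjusted p = 0.0398) and by 0.17 with AOS averaged over diets (adjusted p = 0.0483). Of 90 ribosome assembly factors, 1 rose and 0 fell in HFD-conFMT against control, with 39 higher and a median of -0.03, against the same shares of all genes of 2.09% called and 46.7% higher. The riser was Nop10, a component of pseudouridylation complexes (0.35, limma adjusted p = 0.0388). In HFD-AOS against control Tsr3, a modifier of small subunit RNA, rose by 0.40 (adjusted p = 0.0212) and Urb1 fell by 0.21 (adjusted p = 0.0433). With AOS averaged over diets Tsr3 rose by 0.25 (adjusted p = 0.0306) and Imp3, an early small subunit assembly protein, fell by 0.22 (adjusted p = 0.0483). Of all genes, 2.48% were called in HFD-AOS against control and 2.2% in the AOS average. At an unadjusted p under 0.05 in limma, 4 of the 90 were higher and 16 lower in HFD-AOS against control (7.62% and 13.4% of all genes). For the AOS average 5 were higher and 23 lower (6.81% and 13.2% of all genes). In the remaining comparisons 0 of the genes reported here from either list were called by limma, where HFD-AOSFMT against control had 9 higher and 7 lower of the first list and 5 higher and 6 lower of the second at an unadjusted p under 0.05 (7.51% higher and 10% lower of all genes).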

How the data were processed

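Testis RNA was sequenced from 18 libraries, 6 groups of 3 by the labels. Per the labels' protocols, libraries were made from total RNA with a standard Illumina protocol, and Bowtie 0.12.2 with the mm10 genome is named by the submitters' processing notes. For the counting tool, annotation and strand, nothing is given in the sources used here. A single table was deposited by the authors, whose header names no unit, which was read as FPKM to 2 decimals because its sums differ between libraries and the lowest values scale inversely with transcript length. Group letters and numbers in the column names tied columns to samples. Absolute depth is unknown. Relative depth from the lowest values of 46 genes was 0.903 to 1.096.

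The members and lists were chosen with earlier results of these data known, and the pathway and marker lists come from general knowledge. The fit used log2(FPKM + 1) of genes whose mean reached 1 FPKM, and 6 rows with repeated symbols were left out. One limma 3.58.1 model (R 4.3.3) that fitted 6 group means with a trend of variance on the mean had 12 residual degrees of freedom, and p-values were two-sided with Benjamini-Hochberg adjustment over 13105 genes at 0.05. Members were named by a rule: paralogue pairs, stalk genes, Rpl22 and Rpsa, the 5 highest and 5 lowest, those called and the 3 of smallest p in each comparison, and the 3 of largest and of smallest spread; of the list genes, those called. Rps26, Rps15a and the members of lowest fold change were named after their values were seen, as were the genes that the rule on symbols does not match. One gene is not reported here and was left out of the list of translation genes after its values were seen. In simulated data of 13105 genes, 100 were changed by 0.5 and another 100 by 1 on the log2 scale. Of those changed by 0.5, the model recovered 79 for HFD-conFMT against control and 53 for the interaction. Changes below 0.5, the size of most member changes here, were not simulated, so their recovery is unknown. Coordinates and coding sequences are from GENCODE vM21 on GRCm38, the assembly of mm10, and promoters from RefSeq on GRCm38.p6. Transcript length was the median over a gene's GENCODE transcripts, with only the protein-coding ones used where a gene had any. For the 50-base overlaps a chosen coding transcript of each member was searched for in the annotated transcripts of other genes. The alternatives were another pseudocount, filters, scalings, library weights, a length and GC adjustment, a replicate block, the groups compared alone, and leaving out libraries. Figures were drawn with matplotlib 3.10.9. Planned Rps4l to Rps4x ratios were not analysed here.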

Additional observations from a re-analysis of the deposited data

How the results depend on the processing

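The counts of called members changed with the processing, and the causes were not tested. The shares of all genes called under these settings, or without single libraries, are not given here. Whether calls among other genes changed alike can therefore not be read from these counts. In order, HFD-AOS, HFD-AOSFMT and HFD-conFMT against control, the AOS average and the F test called 6, 2, 16, 8 and 1 members. With a pseudocount of 0.1 HFD-AOSFMT had 0. Without a filter on low values the first 4 were 1, 0, 6 and 3, and a mean of at least 5 FPKM gave 3 in the F test. Quantile normalization gave 0, 0, 3, 2 and 0, with medians of 0.041, 0.12 and 0.13 in the first 3. Rescaling to the TPM scale gave 3, 1 and 7, and 0 in the F test, with medians of 0.044, 0.11 and 0.13, and 0.13 for HFD-conFMT against HFD; summed levels were then 1.05 (AOS), 1.06 (HFD-AOS) and 1.11 (HFD-conFMT) times control. Median centring gave 10 for HFD-AOS, 4 for HFD-AOSFMT and 3 in the F test. Array weights gave 2, 25 and 37, 7 in the F test, 6 for AOS against control and 1 for HFD-conFMT against HFD. The length and GC adjustment gave 0, 0, 2, 0 and 0, with medians of 0.12 (HFD-AOSFMT) and 0.13 (HFD-conFMT) against control and 0.13 for HFD-conFMT against HFD. With only the groups compared in the fit the first 4 were 0, 1, 29 and 0, and HFD-AOSFMT against HFD had 1. Without both control 3 and HFD-conFMT 2 all 5 counts were 0.

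Leaving out single libraries gave 0 to 9 (HFD-AOS), 0 to 12 (HFD-AOSFMT) and 0 to 31 (HFD-conFMT) against control, 0 to 14 for the AOS average, 0 to 9 in the F test and 0 to 2 for HFD-conFMT against HFD. Medians between groups kept their sign in all 18 of these fits, and the interaction median ran from -0.04 to 0.03. The replicate numbers share only a number: over 45 same-numbered pairs the correlation of deviations ran from -0.24 to 0.17, with 2 over 0.1, and 5 of 18 libraries correlated best with their own number. The replicate block gave 0 for HFD-AOSFMT and 9 for HFD-conFMT against control. Of 1653 values of single members, 0 reversed, 425 lost the call and 10 gained it. The 1653 include members not called in the main fit, which had no call to lose, so 425 is not a share of them. Depth is unknown, so counting error of low members such as Rps6 cannot be given.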
